A study of Mus musculus with 6 samples.

Results

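The genes described here are a set of p53 targets together with Mdm2, the p53 inhibitor, in cultured mouse heart cells. They were chosen by symbol, with a rule that uses no measured difference. The set and the lists read beside it were, however, chosen with earlier results of these data known. Of the 10 genes listed, 8 had a probe set with that symbol in the platform annotation, out of 19505 genes measured. Trp53, which encodes p53 itself, and Bax, which encodes a pore-forming apoptosis protein, had none there and are not analysed here. Each of the 8 genes had 1 probe set.

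The samples were 6 Affymetrix arrays of total RNA, 1 for each group. Cardiac fibroblasts (CF) were kept for 48 h with secretome from Ccrl2+ macrophages, with that from Ccrl2- macrophages or with phosphate-buffered saline (PBS), and cardiomyocytes (CM) were kept in the same 3 ways. In the titles the PBS arrays carry the word sham. The labels give all samples as C57BL/6N mice of 15 to 16 weeks, and the macrophages of either kind were sorted from a pool of 6 wild-type hearts taken 1 week after TAC (transverse aortic constriction), an operation that narrows the aorta and overloads the heart, so the secretomes stand for pooled animals. The protocol text speaks of co-culture, and the source labels speak of co-culture with secretome or with PBS. With 1 array a group there was no spread between replicates and no test, and every difference below compares a pair of arrays. In bulk cultures, fewer cells of a type and less RNA per cell cannot be told apart.

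p53 is a transcription factor that is kept scarce in unstressed cells, because Mdm2 attaches ubiquitin to it and blocks its activity. DNA damage and other stresses free p53, which then switches on genes that stop the cell cycle, repair DNA, restrain growth signalling or start apoptosis, and also Mdm2, which closes a feedback loop. In the heart the pathway is known for its part in cardiomyocyte loss and in the response to pressure overload. A panel of its targets is often read together, because single targets such as Cdkn1a also respond to other signals.

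p53 binds as a tetramer to a pair of adjoining decamers. RefSeq promoter windows of assembly GRCm38.p6, from 250 bases before to 50 bases after an annotated start, were found for 9 of the 10 listed genes, in 13 windows. Zmat3 had no window. The p53 response element of 20 letters without a gap was searched with at most 2 mismatches. Its consensus is its own reverse complement, so 1 search covers both strands. It was found in windows of 2 genes, Cdkn1a and Ccng1, each with 1 mismatch, while 29 of 32851 windows in the whole table (0.0883%) matched as well as that and 262 (0.798%) held a match with at most 2 mismatches. Both windows are shown because they alone among the listed genes held the element, which is in capitals.

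Cdkn1a, upstream start, GRCm38.p6 chr17:29090729-29091028, plus strand: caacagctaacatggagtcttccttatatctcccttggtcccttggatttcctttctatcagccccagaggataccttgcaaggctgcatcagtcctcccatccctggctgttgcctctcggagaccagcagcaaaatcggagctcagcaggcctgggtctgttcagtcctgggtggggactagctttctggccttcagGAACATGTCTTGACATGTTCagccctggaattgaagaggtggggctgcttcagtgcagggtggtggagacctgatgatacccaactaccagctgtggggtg
Ccng1, GRCm38.p6 chr11:40755237-40755536, minus strand: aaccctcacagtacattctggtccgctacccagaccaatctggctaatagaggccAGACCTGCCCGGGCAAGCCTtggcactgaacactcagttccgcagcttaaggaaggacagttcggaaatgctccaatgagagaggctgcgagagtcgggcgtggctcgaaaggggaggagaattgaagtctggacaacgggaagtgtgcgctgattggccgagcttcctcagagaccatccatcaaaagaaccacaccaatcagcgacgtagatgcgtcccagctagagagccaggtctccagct

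The Cdkn1a element spans positions -51 to -32 and the Ccng1 element -195 to -176, counted from the annotated start. The second annotated Cdkn1a start, at chr17:29093519-29093818, held no match. A single decamer with no mismatch lay in windows of 6 of the 9 listed genes with a window, where 9.55% of all 27025 genes in the table (2582) held it in a window. It read GAACTTGCCT in the Mdm2 window and AAGCTTGTTT in the window of the second Sesn1 start, and the windows of Bbc3, Phlda3 and Eda2r held none. These matches are descriptions of letters in a short window, and they say nothing about binding.

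Values were deposited on the log2 scale, so a difference of 1 is 2-fold. A floor was set at 6.55, the median over all genes and arrays, which is close to the level of negative controls (array medians of 6.2 to 6.71). A comparison took in each gene with at least 1 value at or above the floor, and 2-fold was the threshold for calling a difference between the deposited values. Where the lower value was under the floor, the size is known only as a bound against the floor, and counts that this touches are also given with such values raised to the floor. Of the 8 genes, 7 were above the floor on all 6 arrays and Bbc3 was below it on all 6. Fibroblast markers averaged 16.38 to 16.52 on the CF arrays and 10.82 to 11.91 on the CM arrays, and cardiomyocyte markers averaged 8.89 to 10.44 on the CF arrays and 16.16 to 16.33 on the CM arrays. The CM arrays also carried endothelial markers (means 13.99 to 14.08), and macrophage markers averaged 10.26 to 11.24 on the CF arrays and 9.89 to 10.79 on the CM arrays, with none of the 7 macrophage markers measured below the floor on any array.

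Mdm2, the ubiquitin ligase that holds p53 down and is itself a p53 target, stood at 13.44 in CF with the Ccrl2+ secretome, 14.07 with the Ccrl2- secretome and 13.41 in PBS. In CM it stood at 14.59, 14.41 and 15.04 in the same order. The highest CF value lay below the lowest CM value.

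Cdkn1a encodes p21, an inhibitor of cyclin-dependent kinases that arrests the cell cycle. It stood at 14.25 in CF with the Ccrl2+ secretome, 15.29 with the Ccrl2- secretome and 14.65 in PBS. In CM it stood at 15.93, 15.76 and 16.37 in the same order. As for Mdm2, every CM array was above every CF array, the Ccrl2- array was the highest of the CF arrays, and PBS was the highest of the CM arrays. Ccng1 encodes cyclin G1, which recruits a phosphatase to Mdm2. Its values were 15.7, 15.83 and 15.75 in CF and 17.11, 17.12 and 17.25 in CM for Ccrl2+, Ccrl2- and PBS. It was the steadiest of the 7 genes within a culture, with a range of 0.13 over the CF arrays and 0.14 over the CM arrays.

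Among the apoptosis and survival genes, Bbc3 encodes PUMA, a protein that triggers apoptosis at mitochondria. It lay at 4.93, 5.17 and 4.77 in CF and at 5.36, 5.1 and 4.86 in CM for Ccrl2+, Ccrl2- and PBS. Every one of these values was under the floor, so no difference is read from them. Phlda3 encodes a repressor of AKT survival signalling. Its values were 8.6, 7.42 and 8.4 in CF and 8.3, 8.02 and 8.91 in CM in the same order, with the Ccrl2- array the lowest in both cultures. All of its values were within the range of negative controls, whose 95th percentile was 10.2 to 10.74 across arrays. Eda2r encodes a receptor of the TNF receptor superfamily for the A2 form of ectodysplasin. It stood at 11.05, 11.6 and 11.39 in CF and at 12.08, 11.58 and 12.77 in CM for Ccrl2+, Ccrl2- and PBS. The CM array in PBS stood above all the others, and the CM array with the Ccrl2- secretome lay below the highest CF array.

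Sesn1 encodes sestrin 1, which restrains mTORC1 growth signalling when amino acids are short. It stood at 11.53 in CF with the Ccrl2+ secretome, 9.37 with the Ccrl2- secretome and 10.67 in PBS. In CM its values were 10.63, 10.58 and 11.01 in the same order. It had the widest range of the set over the 6 arrays, 2.16, and that range lay within the CF arrays. Its CF values with the Ccrl2- secretome and in PBS were within the range of negative controls by the same measure (95th percentiles of 10.69 and 10.74), so its folds in CF are less certain than those of brighter genes. Zmat3 encodes a zinc finger RNA-binding protein that acts on splicing. Its values were 10.67, 11.18 and 10.99 in CF and 10.81, 10.52 and 11.23 in CM for Ccrl2+, Ccrl2- and PBS. The cultures overlapped for Zmat3, Sesn1, Phlda3 and Eda2r and did not overlap for Mdm2, Cdkn1a and Ccng1. The share of all genes without such overlap is not given here. The cultures differ widely, with 30.8% of all genes at 2-fold in either direction in PBS, so the separation is not read as particular to these genes.

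**Figure D1:**
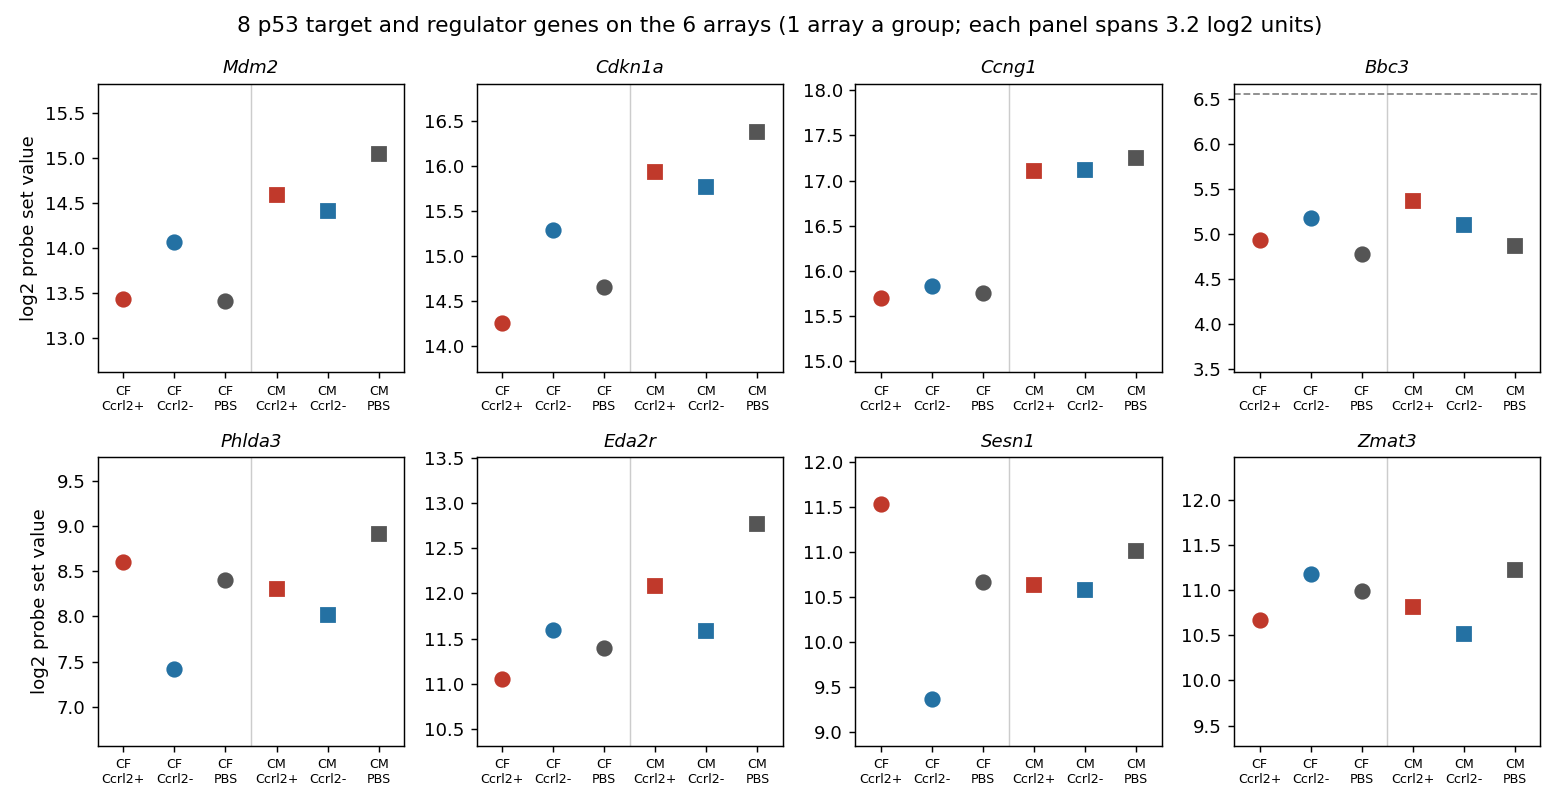
Log2 probe set values (y axis) of the 8 genes on each of the 6 arrays (x axis; circles for CF, squares for CM; red for Ccrl2+ secretome, blue for Ccrl2- secretome, grey for PBS; 1 array a group, so there are no error bars). Each panel has its own axis of equal span, the dashed line in the Bbc3 panel is the floor of 6.55, and in 7 of the panels the CM array in PBS is the highest of the 3 CM arrays.

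In cardiomyocytes all 7 genes past the floor were lower with either macrophage secretome than in PBS, where 51.2% (Ccrl2+) and 51.7% (Ccrl2-) of all genes were below 0. For 7 of 7 genes the PBS array was the highest of the 3 CM arrays, as it was for 37.7% of all 10124 genes past the floor in CM. The 2 comparisons with PBS share that array, so they are not independent of each other. The differences were small in fold. Except for Ccng1, they lay toward the low end of all genes on these arrays, which differed little from each other. For Ccng1, 28.6% (Ccrl2+) and 34.0% (Ccrl2-) of all genes lay lower.

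With the Ccrl2- secretome the median difference from PBS over the 7 genes was -0.63, against -0.02 over all 10054 genes past the floor. Eda2r was 2.28-fold lower (11.58 against 12.77, a difference of -1.19), and it was the 1 gene of 7 at 2-fold, where 0.786% of all genes were at least 2-fold lower. Of all genes past the floor, 0.3% had a lower difference than Eda2r. Phlda3 (-0.89), Zmat3 (-0.71), Mdm2 (-0.63) and Cdkn1a (-0.61) followed, and from 1.2% to 4% of all genes lay lower than each of them. Sesn1 (-0.43) and Ccng1 (-0.13) lay inside the 5th to 95th percentile of all genes, -0.57 to 0.57. Among bright genes, those reaching 10.14, the 75th percentile of named values, the 5th to 95th percentile was narrower, -0.47 to 0.47.

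With the Ccrl2+ secretome the median difference from PBS was -0.44, against -0.01 over all 10009 genes, and 0 of 7 genes reached 2-fold, where 0.839% of all genes did so in either direction. Eda2r (-0.69) and Phlda3 (-0.61) were again the lowest, and 2% and 2.8% of all genes lay lower. Mdm2 (-0.45), Cdkn1a (-0.44), Zmat3 (-0.42) and Sesn1 (-0.38) were lower by similar amounts, and Ccng1 was lower by the least (-0.14). All but Eda2r and Phlda3 lay inside the 5th to 95th percentile of all genes, -0.49 to 0.44. Among bright genes that range was narrower, -0.38 to 0.32. Between the secretomes, 0 of 7 genes reached 2-fold in CM for Ccrl2+ over Ccrl2-, where 0.310% of all genes did in either direction. The median was 0.18, against 0 over all 9995 genes, with 6 of 7 genes above 0 and Ccng1 at -0.01, where 48.3% of all genes were above 0. Eda2r had the largest difference, 12.08 with the Ccrl2+ secretome against 11.58 with the Ccrl2- secretome (0.5), and 3.7% of all genes had a higher one.

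Other transcripts moved with the CM arrays too. All 7 macrophage markers past the floor were lower with the secretomes, with a median of -1.02 for Ccrl2+ over PBS and -0.62 for Ccrl2- over PBS, and their mean level was 9.89, 10.31 and 10.79 for Ccrl2+, Ccrl2- and PBS. Of 5 fibroblast markers, 4 were above 0 with Ccrl2+ (median 0.35) and 5 with Ccrl2- (median 1.17, or 0.97 with values raised to the floor), led by Col3a1 at 10.93 with the Ccrl2- secretome against 8.78 in PBS. Cardiomyocyte markers (medians -0.05 and -0.12) and endothelial markers (0 and -0.14) lay near 0. The part of these shifts in the p53 target differences was not tested.

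In fibroblasts the set lay on both sides of 0 against PBS, and for 0 of 7 genes was the PBS array the highest of the 3 CF arrays, as it was for 33.9% of all genes past the floor in CF. With the Ccrl2- secretome, Mdm2 (14.07 against 13.41, a difference of 0.66) and Cdkn1a (15.29 against 14.65, 0.64) were higher than in PBS, and 9.2% and 9.6% of all genes had a higher difference. Sesn1 was 2.46-fold lower by the deposited values (9.37 against 10.67, -1.3), both within the range of negative controls, and was the 1 gene of 7 at 2-fold, where 4.83% of all genes were at least 2-fold lower. Of negative controls at or above the floor, 13.1% differed by 2-fold in either direction in the same pair. Phlda3 (7.42 against 8.4, -0.98) lay just short of 2-fold, and 4.9% of all genes lay lower. Eda2r (0.21), Zmat3 (0.19) and Ccng1 (0.08) were close to the bulk of genes. The median over the 7 genes was 0.19, against -0.09 over all 10057 genes past the floor.

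With the Ccrl2+ secretome 0 of 7 genes differed from PBS by 2-fold in CF, where 11.0% of all genes did in either direction. Sesn1 had the largest difference (11.53 against 10.67, 0.86), and 6.3% of all genes had a higher one. Cdkn1a (-0.4), Eda2r (-0.34) and Zmat3 (-0.32) were lower, Phlda3 (0.2) was higher, and Mdm2 (0.03) and Ccng1 (-0.05) were nearly level. The median was -0.05, against -0.07 over all 10042 genes. Over the markers, the macrophage median in CF was 0.84 for Ccrl2+ over PBS and -1.1 for Ccrl2- over PBS, and the cardiomyocyte median was 1.4 and -0.06. For Ccrl2- over PBS the 7 macrophage markers split, with 4 at least 2-fold lower and 2, Lyz2 (1.32) and Adgre1 (1.21), at least 2-fold higher. Their part in the p53 target differences was not tested.

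Of the 7 genes, Sesn1 differed most between the fibroblast arrays of the 2 secretomes, and it was 4.47-fold higher with the Ccrl2+ secretome by the deposited values (11.53 against 9.37, a difference of 2.16), the Ccrl2- value lying within the range of negative controls. Phlda3 was 2.27-fold higher (8.6 against 7.42, 1.18) and Cdkn1a 2.06-fold lower (14.25 against 15.29, -1.04). So 2 of 7 genes were at least 2-fold higher, where 8.55% of all genes were, and 1 of 7 was at least 2-fold lower, where 10.1% were. Mdm2 (-0.63), Eda2r (-0.55) and Zmat3 (-0.51) were lower by less than 2-fold, and Ccng1 was at -0.13. The median was -0.51, against 0 over all 10144 genes. In either direction 18.6% of all genes reached 2-fold between these CF arrays, and so did 19% of negative controls at or above the floor, against 0.310% of genes and 15.8% of negative controls between the CM arrays of the same secretomes. Macrophage markers differed between these CF arrays in both directions, with C1qc at 11.07 against 8.11 and Adgre1 at 9.41 against 10.45 for Ccrl2+ against Ccrl2-, and each of the 5 cardiomyocyte markers measurable in CF was higher by 2-fold or more with Ccrl2+. The part of these markers was not tested here either.

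**Figure D2:**
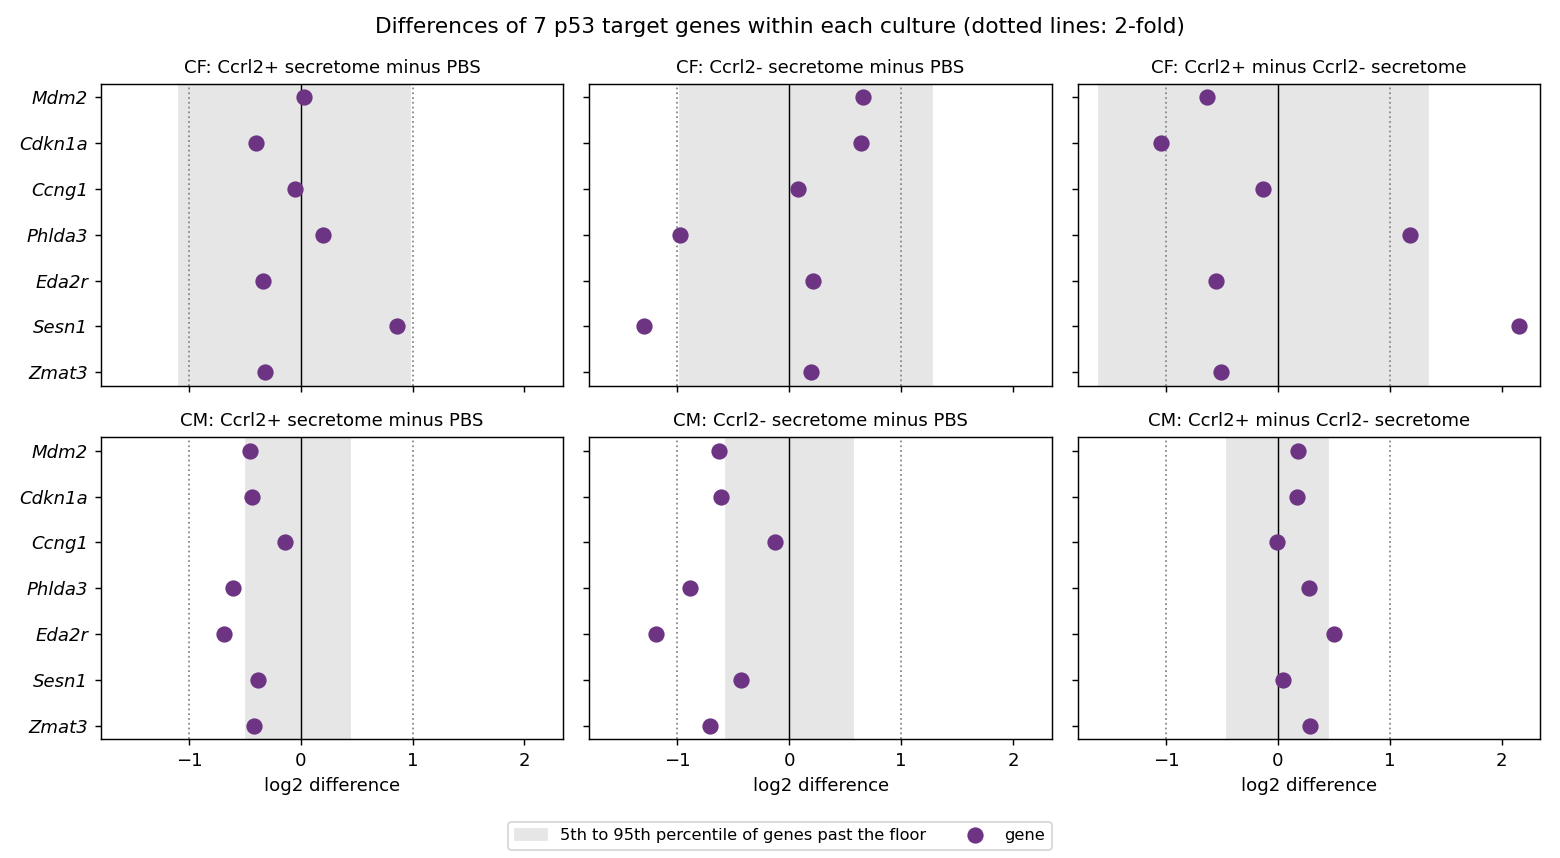
Log2 differences (x axis) of the 7 genes past the floor (y axis) for each comparison within a culture, CF above and CM below, 1 point a gene from 1 pair of arrays; the grey band is the 5th to 95th percentile of all genes past the floor and the dotted lines mark 2-fold. In CM all points lie left of 0 in both comparisons with PBS, with Eda2r at -0.69 and -1.19, while in CF the genes lie on both sides and Sesn1 stands at 2.16 for Ccrl2+ minus Ccrl2-.

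Between the cultures in PBS, all 7 genes past the floor were lower in fibroblasts than in cardiomyocytes, where 49.2% of all genes were below 0, and 4 of 7 were at least 2-fold lower, where 16.9% of all genes were. Cdkn1a was 3.29-fold lower (14.65 in CF against 16.37 in CM), Mdm2 3.1-fold (13.41 against 15.04), Ccng1 2.83-fold (15.75 against 17.25) and Eda2r 2.6-fold (11.39 against 12.77). Phlda3 (-0.51), Sesn1 (-0.34) and Zmat3 (-0.24) were lower by less. The median was -1.38, against 0.01 over all 10394 genes past the floor. The cultures differ widely, with 30.8% of all genes at 2-fold in either direction, so each of these differences has about 9% or more of all genes below it. The CF minus CM difference varied between conditions for most of the set. For Cdkn1a it was -1.68 with the Ccrl2+ secretome, -0.47 with the Ccrl2- secretome and -1.72 in PBS, and for Mdm2 it was -1.15, -0.34 and -1.63. Eda2r, at -1.03, 0.02 and -1.38, was level between the cultures with the Ccrl2- secretome. Ccng1 kept nearly the same difference under all 3 conditions (-1.41, -1.29 and -1.5).

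**Figure D3:**
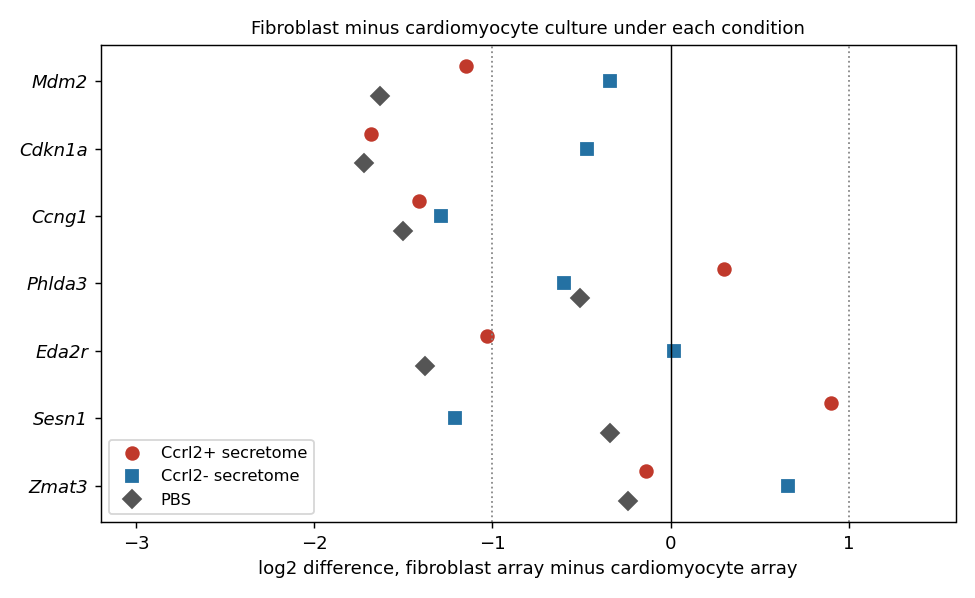
Log2 difference between the fibroblast and the cardiomyocyte array (x axis; CF minus CM) for the 7 genes past the floor (y axis) with the Ccrl2+ secretome (red circles), the Ccrl2- secretome (blue squares) and PBS (grey diamonds), from 1 pair of arrays each. Cdkn1a and Mdm2 lie near -1.7 in PBS at -1.72 and -1.63 and nearer 0 with the Ccrl2- secretome at -0.47 and -0.34, while Ccng1 stays between -1.5 and -1.29.

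A wider list of 25 other p53 targets, of which 24 were measured, was read beside the set. In CM its median was -0.24 for Ccrl2+ over PBS and -0.34 for Ccrl2- over PBS, with 16 of 22 and 18 of 22 genes past the floor below 0, against 51.2% and 51.7% of all genes. None of the 22 reached 2-fold in either CM comparison with PBS, where 0.839% (Ccrl2+) and 1.53% (Ccrl2-) of all genes did. Pmaip1, which encodes the apoptosis protein NOXA, stood at 6.66, 6.97 and 7.35 for Ccrl2+, Ccrl2- and PBS, and Psrc1, a microtubule-binding protein gene, at 7.37, 7.5 and 8.06. Plk3, which encodes a stress-responsive kinase, stood at 8.13, 7.64 and 8.21. All CM values of Pmaip1, Psrc1 and Plk3 were within the range of negative controls (95th percentiles of 10.2 to 10.25), and Pmaip1 was close to the floor.

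In CF with the Ccrl2- secretome, 6 of 23 genes of the wider list were at least 2-fold higher than in PBS. Of all genes 6.18% were. At least 2-fold lower were 0 of 23, where 4.83% of all genes were. The largest differences were those of the autophagy regulator gene Dram1 (10.6 against 7.79), the death receptor gene Fas (11.0 against 8.46), the mTORC1 inhibitor gene Ddit4 (11.49 against 9.48) and the kinase gene Plk2 (12.54 against 10.58). Both Dram1 values and the PBS values of Fas, Ddit4 and Plk2 were within the range of negative controls. The median of the wider list was 0.15, against -0.09 over all genes. With the Ccrl2+ secretome, 2 of 22 were at least 2-fold higher than in PBS, where 4.87% of all genes were, the desmosomal gene Perp (9.28 against 6.86) and the DNA damage binding gene Ddb2 (8.45 against 7.4). Perp and Ddb2 were within the range of negative controls on both arrays. By the deposited values 2 of 22 were called lower, where 6.13% of all genes were, and with low values raised to the floor 1 of 22, where 5.35% were. That 1 is the death receptor gene Tnfrsf10b (9.58 against 10.85). The other was Sesn2, for which the Ccrl2+ value was under the floor (5.5 against 6.63), so that it is bounded at 0.08 lower. The median was -0.08. For Ccrl2+ over Ccrl2-, 8 of 23 were called lower by the deposited values, where 10.1% of all genes were, and 7 of 23 with low values raised to the floor, where 9.13% were. Called higher were 2 of 23, where 8.55% of all genes were, and the median was -0.43. Plk2 (9.66 against 12.54), Fas (8.28 against 11.0) and Ddit4 (9.37 against 11.49) differed by the most among the lower ones, and Sesn2 is bounded at 0.24 lower. Perp was at least 2.73 higher (9.28 against 6.12, the Ccrl2- value under the floor).

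Cell cycle genes that are held down when p21 is active were measured for 13 of 15 listed. In CF with the Ccrl2+ secretome all 13 lay below PBS with a median of -1.86, and 10 of 13 were at least 2-fold lower with low values raised to the floor, where 5.35% of all genes were. Cdkn1a was lower too (-0.4). The cyclin gene Ccna2 stood at 8.83 against 11.72, the mitotic activator gene Cdc20 at 6.56 against 9.1 and the spindle checkpoint gene Bub1 at 7.19 against 9.5. For the other 3 of the 13 the Ccrl2+ value was under the floor, and read against the floor the phosphatase gene Cdc25c was at least 0.92 lower, Mybl2 at least 0.64 and E2f1 at least 0.39. On the Ccrl2+ array only Ccnb2 (11.12) and Mki67 (12.26) of the 13 lay above the 95th percentile of negative controls (10.67). Of negative controls at or above the floor, 19.7% differed by 2-fold in either direction in this pair. With the Ccrl2- secretome, where Cdkn1a was higher (0.64), 0 of 13 reached 2-fold, against 11.0% of all genes in either direction. The median was -0.09, the same as over all genes. For Ccrl2+ over Ccrl2-, 10 of 13 were at least 2-fold lower with low values raised to the floor, where 9.13% of all genes were, and the median of the deposited differences was -1.84. Cdc25c was at least 0.88 and Mybl2 at least 0.78 lower, and Cdkn1a was lower as well. In CM, where Cdkn1a was lower with both secretomes, the cell cycle medians were 0.46 for Ccrl2+ over PBS, with 10 of 11 genes above 0, and 0.76 for Ccrl2- over PBS, with 11 of 12 above 0, where 47.0% and 47.1% of all genes were. The topoisomerase gene Top2a (9.6 against 8.58 in the Ccrl2- comparison) was the 1 of 12 at 2-fold, where 0.746% of all genes were at least 2-fold higher. In PBS, 10 of 13 were called higher in CF than in CM by the deposited values, where 13.9% of all genes were, and 9 of 13 with low values raised to the floor, where 12.6% were. The median was 1.17, and Cdc25c, with a CM value under the floor (7.47 against 6.24), was at least 0.92 higher.

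**Figure D4:**
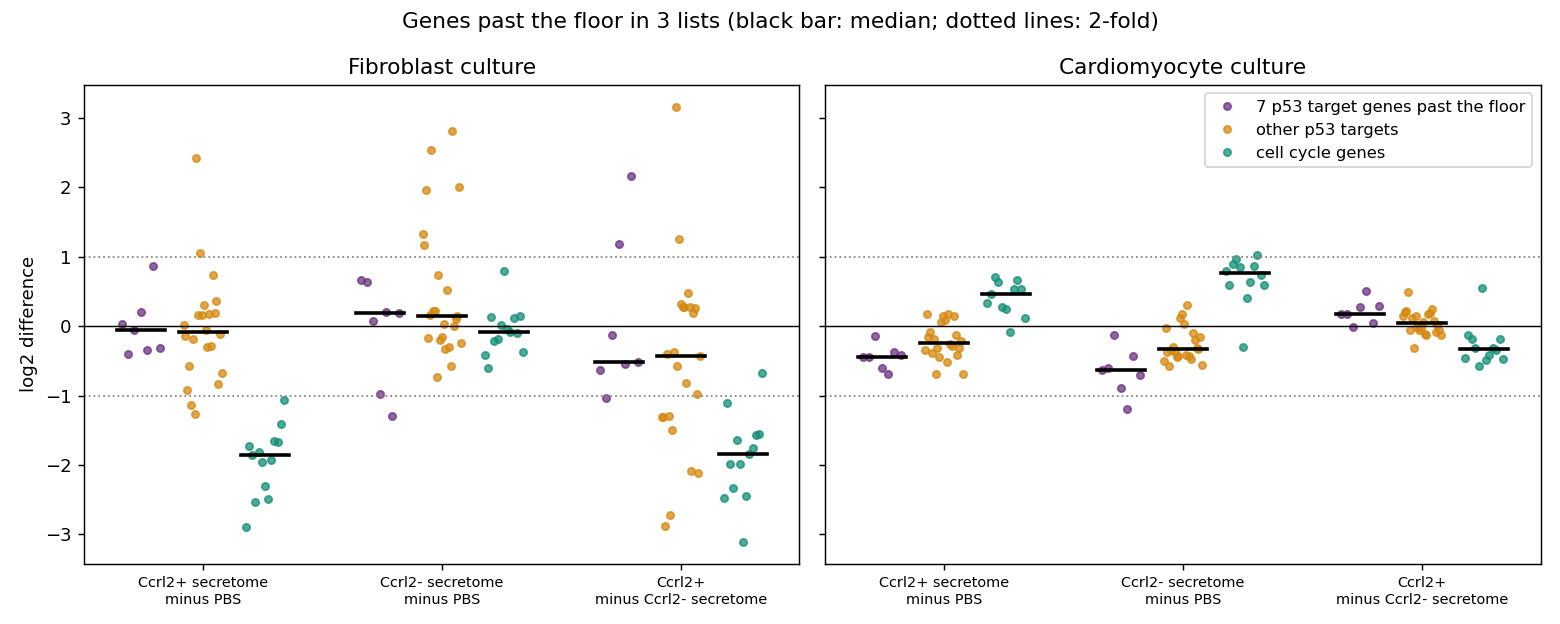
Log2 differences (y axis) of genes past the floor in 3 lists, for each comparison within a culture (x axis), 1 point a gene from 1 pair of arrays; deposited values are used also under the floor, black bars are list medians and dotted lines mark 2-fold. In the cardiomyocyte culture the p53 target medians lie below 0 against PBS (-0.44 and -0.63) and the cell cycle medians above it (0.46 and 0.76), and in the fibroblast culture the cell cycle genes are lower with the Ccrl2+ secretome (median -1.86) while the p53 target median is -0.05.

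Upstream of p53, 15 regulators were measured and 14 were past the floor in each comparison. In CF with the Ccrl2+ secretome the kinase gene Hipk2 was the 1 of 14 at least 2-fold higher than in PBS (13.74 against 12.64), where 4.87% of all genes were. The checkpoint kinase gene Chek1 was the 1 of 14 at least 2-fold lower (8.47 against 9.82), where 6.13% were. With the Ccrl2- secretome 0 of 14 reached 2-fold in CF, where 11.0% of all genes did in either direction. For Ccrl2+ over Ccrl2- in CF, 2 of 14 were at least 2-fold lower, where 10.1% of all genes were. Atr, which encodes a DNA damage kinase, was lower by at least 1.59 (6.49, under the floor, against 8.14), and Chek1 was at 8.47 against 9.47. In CM 0 of 14 reached 2-fold for either secretome over PBS, where 0.839% (Ccrl2+) and 1.53% (Ccrl2-) of all genes did. The medians were -0.06 and 0.04. Mdm4, the partner of Mdm2, stood at 12.36, 12.61 and 12.69 in CF and at 11.52, 11.37 and 11.53 in CM for Ccrl2+, Ccrl2- and PBS. It was the 1 of 14 regulators at least 2-fold higher in CF than in CM in PBS, where 13.9% of all genes were. Hipk2 was the 1 of 14 at least 2-fold lower (12.64 against 13.98), where 16.9% were. Cdkn2a, whose product ARF blocks Mdm2, was under the floor on all 6 arrays at 2.85 to 3.37. The p53 relatives Trp63 and Trp73 were under the floor on all 6 arrays as well.

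Downstream in apoptosis, 13 BCL2 family genes outside the set were measured. They include Pmaip1, which is also in the wider list of p53 targets. In CF with the Ccrl2+ secretome 3 of the 7 measurable were 2-fold or more above PBS, where 4.87% of all genes were. They were the survival gene Bcl2l1, which encodes BCL-XL (13.64 against 12.39), and the death-promoting genes Bmf (8.08 against 6.96) and Bad (7.71 against 6.33, at least 1.16 higher against the floor). Bmf and Bad were within the range of negative controls on both arrays. With the Ccrl2- secretome 1 of 10 was at least 2-fold higher, where 6.18% of all genes were, the death-promoting gene Bid (7.99 against 5.81, at least 1.44 higher). In CM 0 genes of the family reached 2-fold against PBS, where 0.839% (Ccrl2+) and 1.53% (Ccrl2-) of all genes did. The medians were 0.04 and -0.03. Of 9 caspase pathway genes 7 were measured, and 0 of them reached 2-fold in any comparison within a culture. From 0.310% to 18.6% of all genes did so, depending on the pair. Casp6 had their largest difference from PBS in CM, 12.25 with the Ccrl2- secretome against 11.53.

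Of 6 other inhibitors of cyclin-dependent kinases, 4 were past the floor for Ccrl2+ over PBS in CF. With the Ccrl2+ secretome Cdkn1c, which encodes p57, was at least 1.39 higher than in PBS (7.94 against 5.6, the PBS value under the floor), and Cdkn2c was lower (7.29 against 8.92). Cdkn1c was the 1 of 4 at least 2-fold higher, where 4.87% of all genes were. Cdkn2c was the 1 of 4 at least 2-fold lower, where 6.13% were. Both genes were within the range of negative controls on both arrays. In CM 0 of 4 reached 2-fold for either secretome over PBS, where 0.839% (Ccrl2+) and 1.53% (Ccrl2-) of all genes did. The medians were 0.04 and 0.05. Eda, the ligand gene for Eda2r and its relative Edar, stood at 7.02, 6.62 and 6.83 in CF and at 7.44, 6.79 and 7.51 in CM for Ccrl2+, Ccrl2- and PBS. The Ccrl2- array had the lowest Eda value in both cultures, and the level was close to the floor on all arrays. Of the other 3 ectodysplasin pathway genes, Edar and Edaradd were under the floor on all 6 arrays and Traf6 was above it, without a difference of 2-fold in CF or CM.

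The profiles most like those of Cdkn1a and of Sesn1, the gene with the widest range, were sought among 8596 named genes above the floor on all 6 arrays. Likeness was the root-mean-square distance between log2 profiles, each centred on its own mean over the 6 arrays. Nearest to Cdkn1a were Ciao2b at 0.117, Bpnt1 at 0.129 and Riok2 at 0.153. Ciao2b, for example, stood at 8.91, 9.74 and 9.47 in CF and at 10.51, 10.39 and 10.89 in CM for Ccrl2+, Ccrl2- and PBS. Nearest to Sesn1 were Tfdp2 at 0.123, Cd200r1 at 0.162 and Pik3ip1 at 0.163. Tfdp2 stood at 12.77, 10.39 and 11.58 in CF and at 11.83, 11.75 and 11.99 in CM for Ccrl2+, Ccrl2- and PBS. None of these 6 genes belonged to the lists above.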

How the data were processed

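Expression was measured on 6 arrays, 1 for each group. The authors deposited 1 log2 value per probe set and array, and the submitters' processing notes name Affymetrix Expression Console. Its version, the summary algorithm and the build were not given in the sources used here. The log2 scale was read from the values. Of 28846 probe sets, 19572 had 1 symbol in the platform annotation, giving 19505 genes after the probe set with the highest mean was kept for each symbol.

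Each comparison is the difference between log2 values of 2 arrays. Genes with a value of 6.55 or more in the pair were counted, with 2-fold as the call. Where the lower value was under the floor, the size is given as a bound against the floor, and counts so touched are also given with low values raised to the floor. No p-value was computed, and precision is limited by the number of arrays. Counting was tested on simulated data, with noise taken from the CM arrays of the 2 secretomes and changes above 2-fold placed only in genes well above the floor. That test does not cover the CF arrays, changes in dim genes or differences near 2-fold. The members and lists were chosen with earlier results of these data known. Named genes were all members, up to 4 called genes of each list (or those with the largest differences), marker lists, and the 3 nearest profiles of Cdkn1a and of the member with the widest range. Cdkn2a, Eda and the floor-bounded genes were named outside this rule after their values were seen. The alternatives tried were calls at 1.5- and at 3-fold, leaving out the floor or moving it to the 75th percentile, added quantile normalization, removal of a loess trend (span 0.4), averaging a gene's probe sets, and raising low values to the floor. Promoter windows are RefSeq's, assembly GRCm38.p6. Python 3.11.15, numpy 2.4.6, pandas 2.3.3, statsmodels 0.14.6 and matplotlib 3.10.9 were used.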

Additional observations from a re-analysis of the deposited data

Results flagged for a closer look

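In 6 cases a gene of the set lay on opposite sides of 0 in the 2 cultures for the same contrast, with a gap of at least 1 between the CF difference and the CM difference. The gap was not tested, since each difference rests on 1 pair of arrays. For Ccrl2- over PBS the gap was 1.4 for Eda2r (0.21 in CF, -1.19 in CM), 1.29 for Mdm2 (0.66 in CF, -0.63 in CM) and 1.25 for Cdkn1a (0.64 in CF, -0.61 in CM), and 10.4% of all genes past the floor in both cultures met the same conditions. For Ccrl2+ over PBS the gap was 1.24 for Sesn1 (0.86 in CF, -0.38 in CM), where 8.90% of all genes did. For Ccrl2+ over Ccrl2- it was -1.21 for Cdkn1a (-1.04 in CF, 0.17 in CM) and -1.05 for Eda2r (-0.55 in CF, 0.5 in CM), where 12.4% of all genes did. Cdkn1a and Eda2r appear under both contrasts that use the Ccrl2- arrays.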

How the results depend on the processing

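Of 42 medians recomputed under the alternatives, 39 moved by at most 0.1, and of 56 counts of genes at the fold threshold 48 stayed within 1.5 times. At 1.5-fold the count was 1 for CF Ccrl2+ over PBS, where 26.4% of all genes were called. For CF Ccrl2- over PBS it was 4, with 2 higher and 2 lower, where 25.5% were. It was 2 for CM Ccrl2+ over PBS and 5 for CM Ccrl2- over PBS, all lower, where 5.44% and 9.22% were. At 3-fold the count was 0 for CF Ccrl2- over PBS and 0 for CM Ccrl2- over PBS, where 4.94% and 0.189% of all genes were called. It was 1 for CF Ccrl2+ over Ccrl2- and 2 for CF over CM, where 8.46% and 16.9% were. The median was -0.18 for CF Ccrl2+ over PBS with the floor at the 75th percentile, which leaves out Phlda3, and with no floor, which adds Bbc3, it was -0.38 for CF Ccrl2+ over Ccrl2- and -0.94 for CF over CM. The CM medians against PBS moved by no more than 0.1 under these alternatives. Single differences shifted by at most 0.11, and only Ccng1 changed sign, in 2 comparisons where it was within 0.05 of 0. Each gene had 1 probe set and 7 lay above the floor on all arrays. Averaging probe sets and changing the floor therefore could not move a single difference. Averaging probe sets and raising low values could not change the medians or counts of the set either, so the tallies above include settings without any possible effect. No paired analysis was possible because each group had 1 array. Signal limits Bbc3, which was under the floor, Phlda3, which was within the range of negative controls on all 6 arrays, and Sesn1, which was so on the CF arrays with the Ccrl2- secretome and in PBS. Many genes of the other lists were within that range too, among them most cell cycle genes on the CF array with the Ccrl2+ secretome.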

Other observations

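Of 13 relatives of the set measured, Phlda1 stood at 5.45 in CF with the Ccrl2+ secretome, 8.64 with the Ccrl2- secretome and 6.94 in PBS, whereas Phlda3 was lowest with the Ccrl2- secretome. The Phlda1 value with Ccrl2+ was under the floor, so it is bounded at 0.39 lower than in PBS. All CF values of Phlda1 and Phlda3 were within the range of negative controls. Sesn3 stood at 10.04, 9.81 and 10.85 in CF for Ccrl2+, Ccrl2- and PBS, so it was lower with both secretomes, whereas Sesn1 was higher with Ccrl2+ (0.86) and lower with Ccrl2- (-1.3). Sesn2 stood at 5.5 (under the floor), 6.79 and 6.63 in the same order. These Sesn2 values, and the Sesn3 values with either secretome, were within the range of negative controls. The relatives' medians in CM against PBS were -0.06 for Ccrl2+ and -0.14 for Ccrl2-.

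A list of 8 glucocorticoid targets separated the CF arrays. With the Ccrl2+ secretome 7 of 8 were at least 2-fold higher than in PBS (median 3.05), where 4.87% of all genes were, such as Zbtb16 (13.44 against 6.35, at least 6.89 higher against the floor) and Fkbp5 (15.15 against 10.24), whereas the p53 target median was -0.05 in the same comparison. For Ccrl2- over PBS in CF, 1 of 7 past the floor was at least 2-fold higher, where 6.18% of all genes were. In the same pair 1 of 7 was at least 2-fold lower, where 4.83% were, and the median was 0.11. In CM 0 of 8 reached 2-fold with either secretome over PBS, and the medians were -0.2 and 0.01. Of all genes 0.839% (Ccrl2+) and 1.53% (Ccrl2-) did so. The list mean in CM was already 13.18 in PBS, near the 13.4 of CF with the Ccrl2+ secretome, against 10.14 in CF in PBS.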
